A study of Saccharomyces cerevisiae with 9 samples.

Results

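The genes described here encode proteins of the mitochondrial ribosome of budding yeast. They were chosen by name: open reading frames of the array whose standard gene name in the R64 annotation is MRPL, MRPS or RSM followed by a number. This gave 54 of the 5667 genes measured, and each of the 54 was represented by 1 probe set. The 34 MRPL genes encode proteins of the large subunit, and the 9 MRPS and 11 RSM genes encode proteins of the small subunit. Expression was measured on 9 Affymetrix GeneChip Yeast 2.0 arrays, 3 biological replicates per group, in cells of the BY4741 background, a haploid laboratory strain of mating type a. Every group was cultured in YPD (a rich medium) at 30 °C until day 5, when RNA was taken. The CR group (caloric restriction) had 0.5% glucose, the RM group had 2% glucose with 100 nM rapamycin, a drug that inhibits the TOR kinase, and the NR group (no restriction) had 2% glucose without rapamycin. The sources used here do not say whether NR cultures received the solvent of the drug.

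Mitochondrial ribosomes resemble bacterial ribosomes and translate the few messenger RNAs encoded by mitochondrial DNA, nearly all of them for subunits of the respiratory chain and ATP synthase. Apart from a small-subunit protein encoded in mitochondrial DNA, which was not analysed here, their proteins are encoded in the nucleus, made in the cytosol and imported. Part of them descend from bacterial ribosomal proteins and the rest were added in the mitochondrial lineage. Yeast can lose mitochondrial translation and still ferment glucose, but cannot then respire or grow on non-fermentable carbon.

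All values are log2 signals normalised between arrays, so they describe a transcript relative to the rest of the RNA on that array. A change in the share of cells expressing a gene and a change in its RNA per cell cannot be told apart. The arrays of a group were most alike in CR and least alike in NR: correlations over all genes were 0.997 to 0.998 among CR arrays, 0.980 to 0.995 among RM arrays and 0.928 to 0.977 among NR arrays. For the typical member the SD between arrays was 0.05 in CR, 0.14 in RM and 0.19 in NR on the log2 scale. NR replicate 3 stood furthest from the CR arrays (mean r 0.746, against 0.825 and 0.858 for the other NR arrays), and counts that moved by over 1.5 times with 1 array left out are given with those values. The labels call the replicates biological without saying how the cultures were kept apart, so SEs and p-values measure only the spread between these arrays, which in CR was very small. Values identical on all 3 arrays of a group occurred for 11 genes in CR, MRPS35 among them, for 10 in RM and for 4 in NR. Of the genes deleted in BY4741, LEU2, MET17 and URA3 had log2 signals of at most 2.01 on every array, whereas HIS3, of which the strain retains a part, had 5.38 to 6.83. The mating type a genes MFA1, MFA2, STE2, STE6 and BAR1 had log2 signals between 4.68 and 10.7, and among mating type alpha genes MF(ALPHA)1 and MF(ALPHA)2 had 2.32 to 6.62, STE3 4.63 to 6.85 and SAG1 6.69 to 8.28.

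The first comparison asked how members differed between CR and NR. Of the 54 genes, 18 were higher under CR and 11 were lower in the limma fit at an adjusted p under 0.05, and 25 were not called. Members changed less than the typical gene, with a median absolute log2 fold change of 0.41 beside 0.76 over all genes. Over all genes, 68.9% were called, 35.3% higher and 33.6% lower, so the share of members that rose (33.3%) was near the background and the share that fell was 20.4%. The median log2 fold change of the members was 0.23, a factor of 1.17, beside 0.02 over all genes. Individual genes reached 4.37-fold higher and 4.85-fold lower, and 4 members in each direction were called at 2-fold or more, against 17.9% of all genes called at that size higher and 19.9% lower. The CR and NR arrays did not overlap in 42 members (77.8%), beside 75.5% of all genes. The 25 members that were not called were measured closely enough that the 95% interval of each lay within 2-fold of no change.

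**Figure D1:**
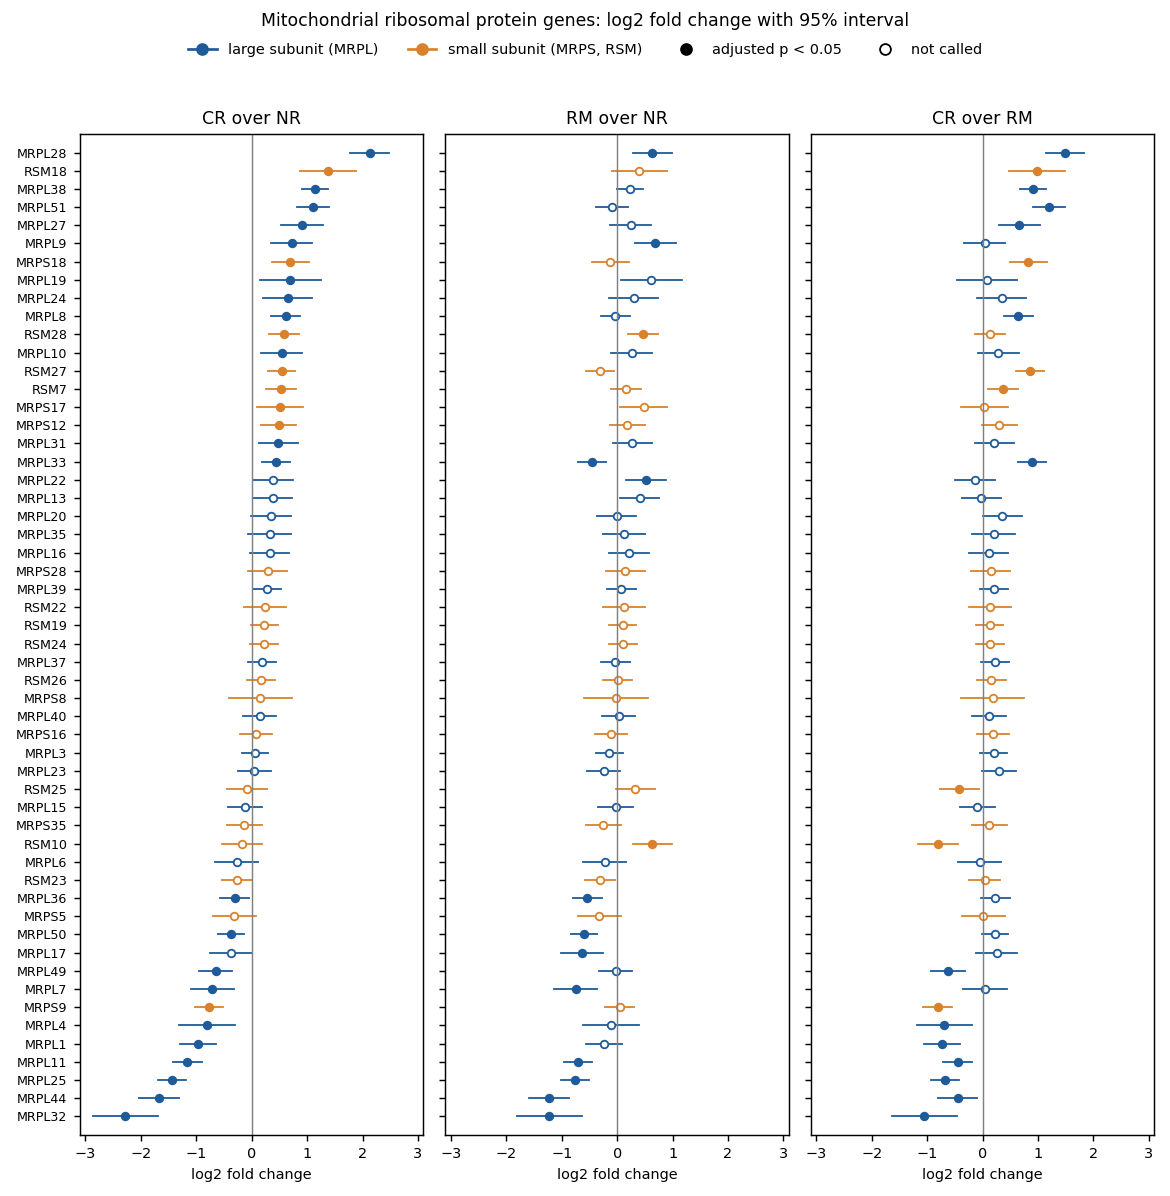
Log2 fold change (horizontal axis) with 95% interval of each of the 54 genes, ordered by CR over NR and drawn for each of the 3 comparisons. Filled points passed an adjusted p of 0.05 and open points did not. The large-subunit genes MRPL28 (2.13) and MRPL32 (-2.28) bound the left panel, while RM over NR runs from -1.23 to 0.69.

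Among large-subunit genes, MRPL28 (YDR462W), which encodes a protein added in the mitochondrial lineage, had the highest fold change under CR. Its log2 signal was 10.16, 10.06 and 10.22 in the CR arrays, against 8.26, 7.99 and 7.82 in the NR arrays. The groups were far apart, with a log2 fold change of 2.13 ± 0.15 (SE, n = 3 each) and an adjusted p of 4.02e-06. MRPL38 (YKL170W), the counterpart of a conserved bacterial protein of the large subunit, had 9.10, 9.10 and 9.07 in CR and 8.03, 7.91 and 7.89 in NR, a log2 fold change of 1.14 ± 0.11. MRPL51 (YPR100W), another mitochondria-specific protein, had 9.16, 9.05 and 9.13 in CR and 8.20, 7.78 and 8.02 in NR, a log2 fold change of 1.11 ± 0.13. In both genes every CR array was above every NR array, with adjusted p-values of 1.5e-05 and 5.36e-05. MRPL27 (1.88-fold) and MRPL9 (1.65-fold) followed, and the other large-subunit genes called higher were MRPL8, MRPL10, MRPL19, MRPL24, MRPL31 and MRPL33, at 1.36-fold to 1.62-fold.

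The large-subunit genes that fell under CR were led by MRPL32 (YCR003W). Its product, a counterpart of a bacterial protein, is cut by the m-AAA protease of the inner membrane before it joins the large subunit. Its log2 signal was 3.21, 3.22 and 3.38 in the CR arrays, against 4.99, 5.44 and 6.21 in the NR arrays, the NR arrays being widely spread. The log2 fold change was -2.28 ± 0.26 with an adjusted p of 5.15e-05. In CR this probe set lay at percentile 5.45 of all genes by signal. No detection calls were used here, and whether this signal stood above background was not tested. MRPL44 (YMR225C), which encodes a mitochondria-specific protein, had 7.05, 7.11 and 7.19 in CR and 8.61, 8.75 and 9.03 in NR, a log2 fold change of -1.68 ± 0.16 with an adjusted p of 1.87e-05. MRPL25 (YGR076C) was 2.72-fold lower and MRPL11 (YDL202W), whose bacterial counterpart anchors the stalk that recruits elongation factors, was 2.23-fold lower.

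MRPL1 (YDR116C) encodes the counterpart of the bacterial protein of the stalk beside the exit site for transfer RNA. Its log2 signal was 5.99, 5.72 and 6.02 in CR and 6.87, 6.70 and 7.06 in NR, with no overlap, and it was 1.95-fold lower. The remaining large-subunit genes called lower under CR were MRPL4, MRPL7, MRPL49, MRPL50 and MRPL36, at 1.75-fold to 1.24-fold.

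In the small subunit 7 of 20 genes were higher under CR and 1 was lower, and 2 were lower without NR replicate 2 or without NR replicate 3. RSM18 (YER050C), the counterpart of a bacterial small-subunit protein, had 9.98, 10.01 and 10.04 in CR and 9.09, 8.63 and 8.19 in NR, a log2 fold change of 1.38 ± 0.22 with an adjusted p of 0.000452. Its CR arrays were nearly identical, and its NR arrays spanned close to a log2 unit. MRPS18 (YNL306W), also of bacterial descent, had 9.15, 9.08 and 9.05 in CR and 8.61, 8.37 and 8.21 in NR and was 1.62-fold higher. RSM28 had a log2 fold change of 0.59, and RSM7, RSM27, MRPS12 and MRPS17 were 1.40-fold to 1.45-fold higher. MRPS12 is the counterpart of the bacterial protein that monitors decoding accuracy. The small-subunit gene that fell was MRPS9 (YBR146W), with 6.75, 6.53 and 6.60 in CR against 7.31, 7.37 and 7.51 in NR, 1.70-fold lower with an adjusted p of 0.000271. Next below it, MRPS5 had a log2 fold change of -0.31 (95% interval -0.70 to 0.08) and RSM23 one of -0.27 (adjusted p = 0.0708), and neither was called.

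The calls under CR depended on single arrays mainly on the higher side. Leaving out NR replicate 1, which had the highest signal of the NR arrays in 38 of the 54 members, brought the members called higher to 27. Over all 5667 genes that fit called 2093 higher, against 2003 with all arrays, so the members' share was then above that of all genes. Leaving out NR replicate 2, CR replicate 1 or CR replicate 3 brought the members called higher to 14, beside 1944, 1772 and 1775 of all genes. The number of genes called lower stayed between 10 and 13 with any array left out. In every such fit and in the full fit, 13 members were called higher and 10 lower; those lower were MRPL32, MRPL44, MRPL11, MRPL25, MRPL50, MRPL49, MRPL1, MRPS9, MRPL4 and MRPL7.

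**Figure D2:**
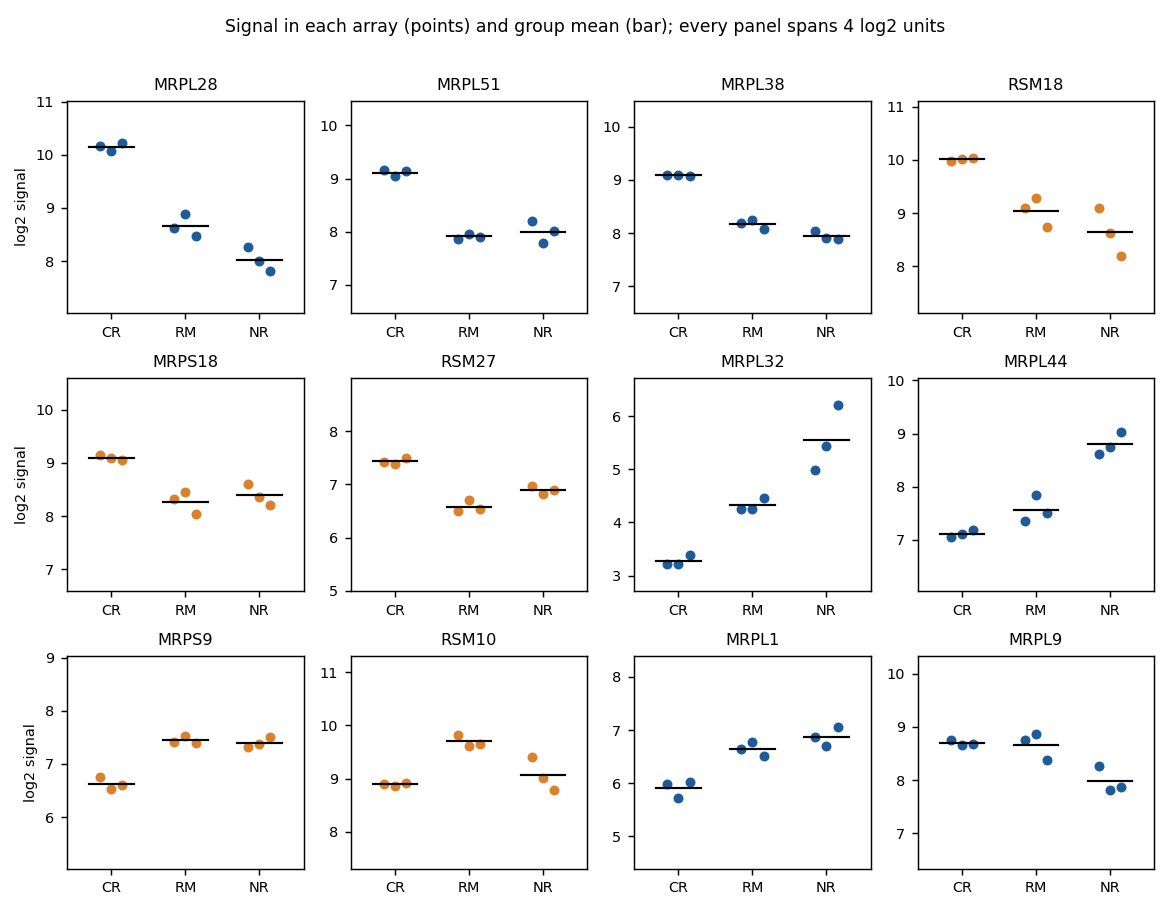
Log2 signal (vertical axis) in each array, with CR, RM and NR side by side for 12 genes; points are arrays in the order of replicates 1 to 3, bars are group means, and every panel spans 4 log2 units. Blue marks the large subunit and orange the small subunit. MRPL28, MRPL51, MRPL38, RSM18, MRPS18 and RSM27 have all CR arrays above the rest, MRPL32 and MRPL44 have CR lowest, RM between and NR highest, and RSM10 is highest in RM.

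The second comparison asked how members differed between RM and NR. Fewer members changed and by less: 5 of 54 were higher under RM and 9 were lower, against 37% of all genes called, 17.6% higher and 19.4% lower. The members' shares were 9.26% and 16.7%. Their median log2 fold change was 0.00 (0.001 before rounding), beside -0.05 over all genes. The median absolute log2 fold change was 0.25, beside 0.39 over all genes. At 2-fold or more, 2 members were called lower and 0 higher, against 4.66% and 3.99% of all genes. The RM and NR arrays did not overlap in 18 members (33.3%), beside 43.5% of all genes. Of the 40 members not called, 39 had a 95% interval within 2-fold, the exception being MRPL19 (log2 fold change 0.62, interval 0.07 to 1.16).

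The 9 members called lower under RM with all arrays belonged to the large subunit. MRPL32 had log2 signals of 4.25, 4.25 and 4.46 in the RM arrays, all below the NR values given above, and was 2.34-fold lower with an adjusted p of 0.00778. MRPL44 had 7.36, 7.85 and 7.50 in RM and was also 2.34-fold lower, with an adjusted p of 0.00107. MRPL25 was 1.70-fold lower, MRPL7 1.68-fold, MRPL11 1.63-fold, MRPL17 1.55-fold, MRPL50 1.51-fold, MRPL36 1.45-fold and MRPL33 1.36-fold. MRPL17, which was not called in CR (log2 fold change -0.38, adjusted p = 0.0639), and MRPL33 were the members of this group that did not also fall under CR.

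The small subunit had 2 of 20 genes higher under RM and 0 lower in the limma fit, with 2 lower (RSM27 and RSM23) at an unadjusted p under 0.05. Without NR replicate 3 there were 2 called lower, RSM27 and MRPS5, and without RM replicate 2 there was 1, RSM27. The lowest small-subunit values were MRPS5, with 6.86, 7.02 and 6.47 in RM and 7.26, 7.24 and 6.83 in NR, and RSM27, with 6.50, 6.71 and 6.54 in RM and 6.96, 6.83 and 6.89 in NR. The RM and NR arrays of MRPS5 overlapped, and its log2 fold change was -0.32 ± 0.17. Those of RSM27 did not overlap, and its log2 fold change of -0.31 ± 0.11 had an adjusted p of 0.0508, just outside the call. RSM27 was called in 4 alternative fits, at adjusted p-values of 0.0416 to 0.0498: without RM replicate 2, without NR replicate 3, with an intensity trend and without the dimmest 25% of genes. MRPS5 was called without NR replicate 3 (adjusted p = 0.0427). RSM23, whose product is the yeast relative of the human death-associated protein DAP3, had a log2 fold change of -0.31 and an adjusted p of 0.0751.

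The members called higher under RM were MRPL9, MRPL28, RSM10, MRPL22 and RSM28. MRPL9 (YGR220C), the counterpart of a conserved bacterial protein, had 8.75, 8.86 and 8.39 in RM and 8.27, 7.81 and 7.86 in NR, a log2 fold change of 0.69 ± 0.16 with an adjusted p of 0.0127. MRPL28 had 8.62, 8.88 and 8.47 in RM, a log2 fold change of 0.64 ± 0.15 over NR. RSM10 (YDR041W), of bacterial descent, had 9.82, 9.62 and 9.66 in RM and 9.41, 9.002 and 8.78 in NR, a log2 fold change of 0.64 ± 0.16. In each of these genes every RM array lay above every NR array, with the nearest arrays close together. MRPS17 had 9.19, 9.44 and 8.96 in RM and 9.11, 8.48 and 8.56 in NR, which overlapped, and its log2 fold change of 0.48 was not called (adjusted p = 0.0726). MRPL13 and MRPL19 had log2 fold changes of 0.41 and 0.62 and were not called either.

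The calls under RM depended on single arrays and on whether the CR arrays were in the fit. In the main fit the 3 groups share the same estimate of spread, and the CR arrays varied least. A limma fit of the RM and NR arrays alone called 0 members higher (5 at an unadjusted p under 0.05) and 6 lower. Over all 5667 genes it called 473 higher and 448 lower, against 997 and 1102 in the main fit. The fit without RM replicate 1 called 1 member higher, beside 600 of all genes. Without RM replicate 2 there were 3 (698 of all genes) and without NR replicate 1 there were 13 (1274 of all genes). With any array left out, the genes called lower numbered 8 to 12. MRPL28 was the only member called higher, and MRPL32, MRPL44, MRPL11, MRPL25, MRPL50, MRPL36 and MRPL7 those called lower, in the full fit and in each fit that left out 1 array. In the fit of the RM and NR arrays alone MRPL28 had an adjusted p of 0.0559, and its adjusted p ranged from 0.00436 to 0.0676 over the alternative fits.

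**Figure D3:**
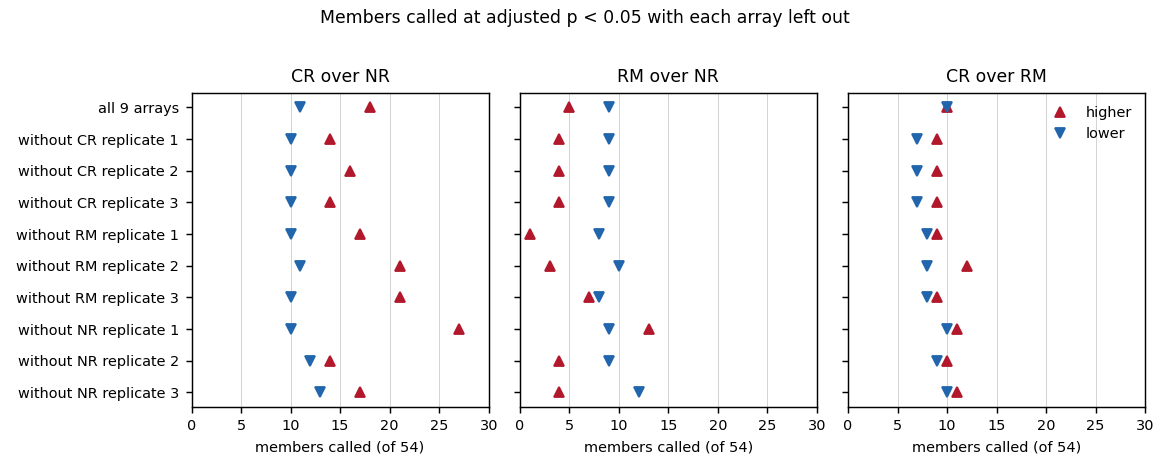
Number of the 54 genes called higher (triangles up) and lower (triangles down) at an adjusted p of 0.05, with all 9 arrays and with each array left out in turn. Genes called lower stay within 10 to 13 in CR over NR and 8 to 12 in RM over NR, while genes called higher range from 14 to 27 and from 1 to 13.

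The CR and RM groups were set against the same NR arrays, so their values over NR share those arrays. Side by side, 7 members were called lower in both treatments (MRPL32, MRPL44, MRPL25, MRPL11, MRPL7, MRPL50 and MRPL36) and 3 were called higher in both (MRPL28, MRPL9 and RSM28). The share of all genes called alike in both was not counted, so whether these overlaps are particular to the members was not tested. MRPL33, the counterpart of a bacterial protein, was the member called in opposite directions, with a log2 fold change of 0.44 ± 0.11 for CR over NR and -0.45 ± 0.11 for RM over NR. Its RM call was lost without RM replicate 1, with an adjusted p of 0.0631, in the fit of the RM and NR arrays alone, at 0.0802, and in a fit with a variance for each group, chosen after seeing the data, at 0.0726, while its CR call held in all the alternative fits without a fold limit (adjusted p 0.00224 to 0.0316).

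The direct comparison of CR with RM tested where the treatments differed. Of the 54 members, 10 were higher in CR than in RM and 10 were lower, against 56.1% of all genes called, 29.7% higher and 26.4% lower; the members' share was 18.5% in each direction. The median log2 fold change was 0.14, beside 0.00 over all genes (0.002 before rounding), and 2 members were called at least 2-fold higher and 1 at least 2-fold lower, against 12.7% and 13.2% of all genes. In absolute size the median log2 fold change was 0.23, beside 0.57 over all genes. The CR and RM arrays did not overlap in 32 members (59.3%), beside 75.9% of all genes. The 34 members not called each had a 95% interval within 2-fold of no change.

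Genes higher in CR than RM included 8 that were called higher over NR in CR and not called in RM: MRPL27, MRPL38, MRPL51, MRPL8, MRPS18, RSM18, RSM27 and RSM7. MRPL28 was 2.81-fold higher in CR than RM (adjusted p 4.3e-05) and MRPL51 2.30-fold (adjusted p 5.25e-05), the RM arrays of MRPL51 standing at 7.87, 7.96 and 7.91. RSM18 was 1.97-fold higher, with 9.09, 9.28 and 8.73 in RM, and MRPL38 1.88-fold, with 8.19, 8.25 and 8.08 in RM. MRPL33 was 1.85-fold higher, MRPS18 1.77-fold, with 8.32, 8.46 and 8.03 in RM, and MRPL27 1.58-fold. RSM27 (YGR215W), which encodes a mitochondria-specific protein, had 7.42, 7.38 and 7.50 in CR, all above the RM values given above, and was 1.80-fold higher with an adjusted p of 0.000169. MRPL8 was 1.56-fold higher and RSM7 1.29-fold.

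Genes lower in CR than RM included MRPL32, at a log2 fold change of -1.05 with an adjusted p of 0.00681. After quantile normalization its log2 fold change was -0.68 and not called (adjusted p = 0.0508), while RSM10 had -0.87 and MRPS9 -0.82. MRPS9 had 7.41, 7.52 and 7.39 in RM, far above its CR values, and was 1.76-fold lower in CR. RSM10 had 8.90, 8.87 and 8.92 in CR, below each RM array, and was 1.75-fold lower in CR than RM, while its difference between CR and NR was not called (log2 fold change -0.17, interval -0.53 to 0.19). MRPL1, at 6.64, 6.78 and 6.51 in RM, was 1.66-fold lower in CR, MRPL4 1.61-fold, MRPL25 1.60-fold and MRPL49 1.54-fold. MRPL44 and MRPL11 were 1.37-fold lower. RSM25 was 1.34-fold lower with an adjusted p of 0.0487, just inside the call, which was lost with any 1 of the CR arrays, RM replicate 1 or 2, or NR replicate 2 left out (adjusted p 0.00865 to 0.148 over the alternative fits). The call of MRPL4 was lost without any 1 of the CR arrays or without RM replicate 1 or 3, at adjusted p-values of 0.0628 to 0.0728 (0.000181 to 0.084 over the alternative fits). The spread within NR, the widest of the groups, enters this test. A fit of the CR and RM arrays alone called 19 members higher and 10 lower. Over all 5667 genes that fit called 2075 higher and 1982 lower, against 1684 and 1496 with all arrays.

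Over the 3 comparisons, 33 members were called at least once and 21 never. The matching shares of all genes, also for calls in all 3 comparisons, were not counted. The never-called members, among them MRPL3, MRPL16, MRPL23, MRPL40, MRPS16, MRPS35, RSM22 and RSM24, had log2 fold changes between -0.32 and 0.41 in the comparisons over NR. Only 6 members were called in all 3 comparisons: MRPL28, MRPL33, MRPL11, MRPL25, MRPL32 and MRPL44, all of the large subunit. Under CR 10 of 34 large-subunit genes (29.4%) and 1 of 20 small-subunit genes (5%) were lower, beside 33.6% of all genes. Under RM 9 of 34 (26.5%) and 0 of 20 were lower, beside 19.4% of all genes, with 2 of 20 in the small subunit without NR replicate 3 and 1 without RM replicate 2. Called higher under CR were 32.4% of large-subunit and 35% of small-subunit genes, beside 35.3% of all genes. Without NR replicate 1 the large-subunit genes called higher under CR numbered 17 in place of 11. Over all 5667 genes the number was 2093 in place of 2003. Under RM, 3 large-subunit and 2 small-subunit genes were higher, against 8 and 5 without NR replicate 1, 1 and 0 without RM replicate 1, 5 large-subunit genes without RM replicate 3 and 1 small-subunit gene without RM replicate 2. All genes called higher under RM numbered 997, against 1274, 600, 798 and 698 in those fits. The typical gene of the 2 subunits differed little, with median log2 fold changes of 0.24 and 0.23 under CR, and of -0.03 and 0.10 under RM. No test of this difference between the subunits was made, since genes are not replicates of a condition.

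The mean log2 signal over the large-subunit genes lay at 0.04, -0.01 and 0.04 log2 units from the NR mean in the CR arrays, at -0.10, 0.02 and -0.22 in the RM arrays, and at 0.10, -0.09 and -0.00 in the NR arrays themselves. The mean over the small-subunit genes lay at 0.24, 0.19 and 0.23 in CR, at 0.10, 0.22 and -0.07 in RM, and at 0.14, -0.03 and -0.10 in NR. The large-subunit mean of CR fell within the range of the NR arrays, and the small-subunit mean of every CR array was above every NR array. RM replicate 3 was lowest of the RM arrays in 36 of the 54 members and RM replicate 2 highest in 39.

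**Figure D4:**
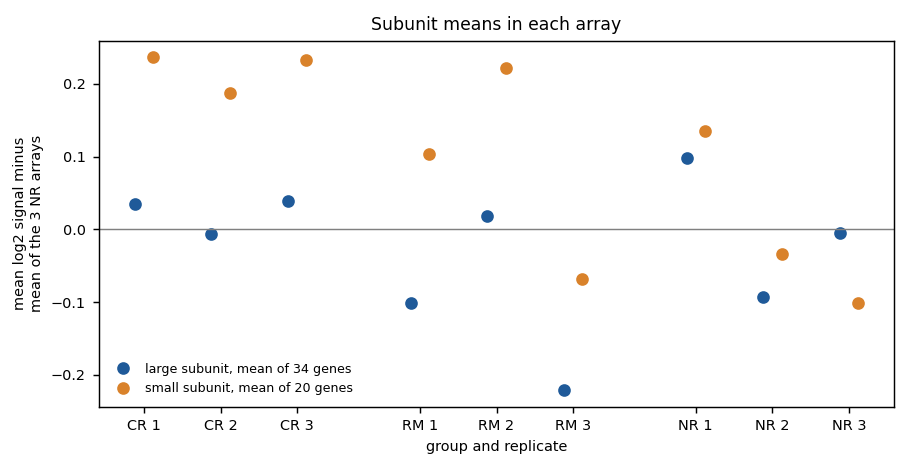
Mean log2 signal of the 34 large-subunit and the 20 small-subunit genes in each array, as the difference from the mean of the NR arrays (vertical axis). The small-subunit means of the CR arrays are 0.19 to 0.24, and the RM arrays spread from -0.07 to 0.22.

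Members descended from bacterial ribosomal proteins and members added in the mitochondrial lineage both had genes called in each direction under CR. So did all genes, of which 35.3% were higher and 33.6% lower. Of 33 conserved members, 12 were higher (36.4%) and 9 lower (27.3%) under CR, with a median log2 fold change of 0.23. Of 20 mitochondria-specific members, 6 were higher (30%) and 2 lower (10%), with a median of 0.21. Under RM 17.6% of all genes were higher and 19.4% lower. The conserved members had 3 higher (9.09%) and 6 lower (18.2%) under RM, and the mitochondria-specific members 2 higher (10%) and 3 lower (15%). The higher counts were 7 and 6 without NR replicate 1 and 0 and 1 without RM replicate 1, and the mitochondria-specific count was also 1 without RM replicate 2. RSM22, which resembles a methyltransferase, was in neither class. The members lie on 14 chromosomes, and the 1 pair of adjacent members, MRPS12 and RSM19 on chromosome XIV, had log2 fold changes of 0.48 and 0.23 under CR, of which that of MRPS12 was called.

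Mitochondrial ribosomal proteins with other gene names showed a different division between the subunits, which was not tested. Over all genes, 35.3% were called higher and 33.6% lower under CR, 17.6% and 19.4% under RM, and 29.7% and 26.4% in CR over RM. The small-subunit share lower under CR (30.8%) and the large-subunit share higher under RM (18.2%) were near those values. The large-subunit share higher under CR was 63.6%. Of 11 further large-subunit genes, 7 were higher under CR than NR and 0 lower in the limma fit (0 also at an unadjusted p under 0.05), with IMG2 at 2.22-fold (adjusted p 0.000191) and MNP1, the stalk protein, at a log2 fold change of -0.28 that was not called. Of 13 further small-subunit genes, 2 were higher and 4 lower under CR. MRP13 fell 4.22-fold (adjusted p 1.25e-06), and NAM9, counterpart of a bacterial protein that starts small-subunit assembly, was 1.74-fold higher. Under RM the further large-subunit genes had 2 higher, led by MRP49 at a log2 fold change of 0.60, and 1 lower, IMG1 (-0.38), with MNP1 at -0.42 not called (adjusted p = 0.0548). The further small-subunit genes had 0 higher (0 also at an unadjusted p under 0.05) and 3 lower under RM, with MRP13 1.81-fold lower and SWS2 at a log2 fold change of 0.30 that was not called. In CR over RM the further large-subunit genes had 4 higher, led by IMG2 at 2.32-fold, and 0 lower, and the further small-subunit genes 3 higher and 7 lower, from NAM9 at a log2 fold change of 0.9996 to EHD3 at -1.38. The 7 large-subunit rises under CR were 3 without CR replicate 2 or 3 and 4 without CR replicate 1 or NR replicate 2, and 1 gene was called lower without NR replicate 1. The 2 small-subunit rises under CR were 1 without CR replicate 3. Under RM the small-subunit genes had 5 lower and 1 higher without NR replicate 1. The large-subunit genes under RM had 1 higher without RM replicate 1, RM replicate 2 or NR replicate 2, 2 lower without NR replicate 1, and 0 lower without RM replicate 1, RM replicate 3 or CR replicate 3. The 7 small-subunit genes lower in CR than RM were 4 without any 1 of the CR arrays or without RM replicate 1.

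Around the ribosome, other genes of mitochondrial translation also went both ways under CR, as did all genes (35.3% higher and 33.6% lower). Of 13 mitochondrial aminoacyl-tRNA synthetases, which charge transfer RNAs with amino acids, 7 were lower and 2 higher, and MSR1 had a log2 fold change of 0.65. MSW1 had log2 signals of 1.94, 1.76 and 2.46 in CR, near those of the deleted LEU2, against 3.20, 3.89 and 4.61 in NR. It was called lower (log2 fold change -1.84), and whether its signal stood above background was not tested. The same limit holds for MST1 and MSF1, also called lower, with mean log2 signals of 1.49 and 1.64 in CR and 3.24 and 2.89 in NR. Of 8 translation factors, 2 were higher and 0 lower (1 at an unadjusted p under 0.05), led by the initiation factor AIM23 at 2.68-fold, with the recycling factor RRF1 lowest at a log2 fold change of -0.29 (not called). The 20 translational activators, which act on particular mitochondrial messenger RNAs, had 10 higher and 6 lower, from SOV1 at 3.77-fold higher to CBS1 at a log2 fold change of -1.94, whose CR signal lay at percentile 5.36 of all genes. Among 9 genes of ribosome assembly and the m-AAA protease, 3 were higher and 2 lower; the protease subunit AFG3 was 2.53-fold higher and the RNA methyltransferase MRM1 had a log2 fold change of -0.87. Of 3 genes of mitochondrial transcription, MTF1 (1.51) was higher and ABF2 (-0.91), which packages mitochondrial DNA, was lower. Single arrays moved these counts too: the synthetases had 1 higher without CR replicate 2, the activators 3 lower without CR replicate 2, the assembly and protease genes 1 lower without any 1 of the CR arrays, and the translation factors 4 higher and 1 lower without NR replicate 3.

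Under RM, beside 19.4% of all genes lower and 17.6% higher, the synthetases had 6 of 13 lower and 1 higher (MSR1 at a log2 fold change of 0.53). MST1 was lowest at -0.87, with mean log2 signals of 2.36 in RM and 3.24 in NR. Whether these signals stood above background was not tested. The translation factors had 2 of 8 lower and 0 higher (0 also unadjusted), with RRF1 at -0.76 and IFM1 at 0.39 (not called). The activators had 5 of 20 lower and 1 higher, with CBS1 at -0.83 and PET122 at 0.53, and the assembly and protease genes 3 of 9 lower and 0 higher (1 unadjusted), with MRH4 at -0.89 and MTG2 at 0.59 (adjusted p = 0.0541, not called). Without RM replicate 1 or NR replicate 2 the synthetases had 3 lower, and without any 1 of the CR arrays, RM replicate 1, RM replicate 2 or NR replicate 3 they had 0 higher. The activators had 3 lower without RM replicate 3, 2 higher without NR replicate 1, and 0 higher without any 1 of the CR arrays, the RM arrays or NR replicate 3. The assembly and protease genes had 3 higher without NR replicate 1 and 1 higher without RM replicate 2, and the translation factors 1 higher without NR replicate 1. AFG3 had a log2 fold change of -0.58 under RM and was 3.80-fold higher in CR than RM. Its partner YTA12 was 1.57-fold higher under CR, 1.83-fold lower under RM and 2.87-fold higher in CR than RM. MRPL32, whose product this protease cuts, was lower than in NR under both treatments.

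The nuclear genes for respiratory chain and ATP synthase subunits include partners of subunits made by mitochondrial ribosomes, and also succinate dehydrogenase, which is wholly nuclear-encoded. Of 34 such genes, 25 were lower and 2 higher under CR (median log2 fold change -0.89), with CYT1 12.3-fold lower and SDH2 at 0.48. Under RM, 19 were lower and 1 higher (median -0.46), with CYC1 lowest at -1.91. The number lower under RM was 8 without RM replicate 1 and 11 without RM replicate 2. With any array but NR replicate 3 left out, 1 was higher under CR and 0 under RM. Cytosolic ribosomal protein genes had 126 of 130 lower and 0 higher under CR, also unadjusted (median -2.09) and 37 lower and 7 higher under RM (median -0.42), the number lower under RM ranging from 14 without RM replicate 2 to 62 without NR replicate 1. It was 15 without RM replicate 1, 24 without any 1 of the CR arrays or NR replicate 2, and 21 without NR replicate 3. These counts stand beside the members' 11 lower and 18 higher under CR, and 9 lower and 5 higher under RM, and no test between the lists was made. Of all genes, 33.6% were lower and 35.3% higher under CR, and 19.4% lower and 17.6% higher under RM. Among 12 regulators, HAP4, the activating subunit of the complex that drives respiratory genes, had a log2 fold change of -3.03 under CR and -0.94 under RM. FHL1, a regulator of cytosolic ribosomal protein genes, was highest under CR at 2.29, and HAP2 was highest under RM at 1.16.

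**Figure D5:**
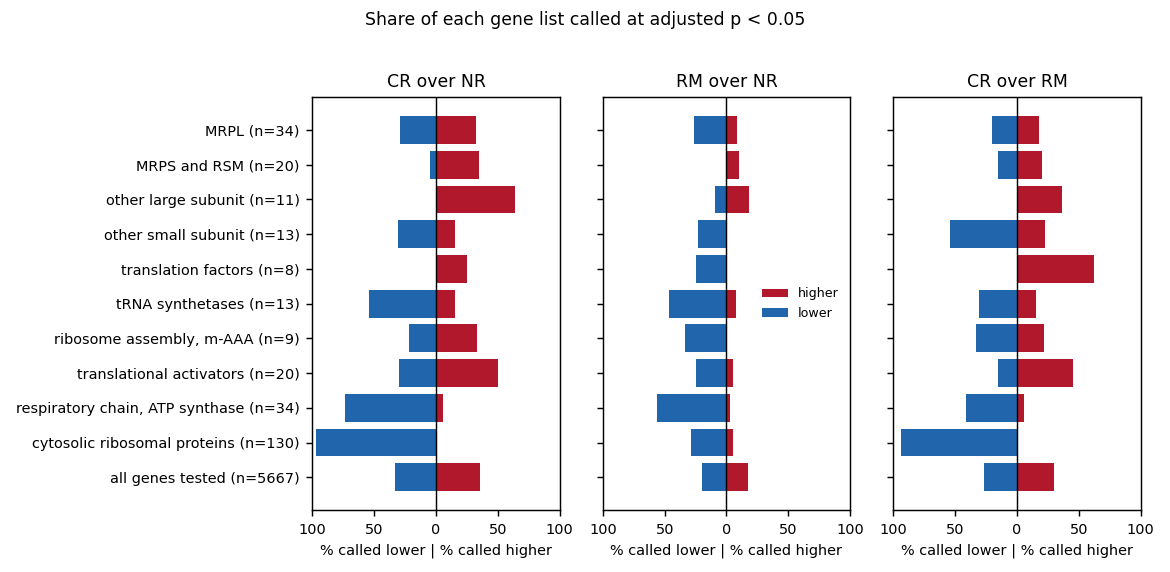
Share of the genes in each list called lower (left of 0) and higher (right of 0) at an adjusted p of 0.05, in percent, in each of the 3 comparisons, with the number of genes in each list. The cytosolic ribosomal proteins are nearly all lower under CR (96.9%), whereas MRPL genes are 32.4% higher and 29.4% lower, beside 35.3% and 33.6% of all genes tested.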

How the data were processed

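Signals were measured on 9 arrays, 3 each for CR, RM and NR, grouped by the sample titles. The log2 signals per array were deposited by the authors; RMA (background correction, quantile normalization and probe summary) and Transcriptome Analysis Console 2.0 are named in the submitters' processing notes, with no role given. The authors' deposited table adds signed fold changes, scored per comparison, and p-values after pairwise comparison, per the file headers; its folds equal the group mean differences used here within 7.14e-10 on the log2 scale. The first listed probe set stood for each of 5667 genes, named through the RefSeq R64 table (21 unmatched). The array's genome build was not given in the sources used here, and coordinates are therefore left out. A group-means model was fitted with limma 3.58.1 in R 4.3.3 (lmFit, eBayes) over all genes and 9 arrays, with Benjamini-Hochberg adjustment over 5667 genes per comparison; a call is an adjusted p under 0.05. Intervals are 95% per gene. The fit was tested on simulated data for CR over NR. It recovered 11 of 50 genes set to differ by 0.5 log2 units and 31 of 50 set to differ by 1. At 2 and 3 log2 units it recovered 48 and 49 of 50, and it called 8 of 5467 genes set not to differ. The simulation gave all groups the same spread for a gene and left most genes unchanged. In the data the median SD over all genes was 0.06 in CR, 0.16 in RM and 0.29 in NR, and 68.9% of genes were called in CR over NR. The simulated rates of recovery and of false calls therefore need not hold for these arrays. Differences below 1 log2 unit could be missed, although some smaller ones were called, such as MRPL36 at -0.31. Arrays of 3 per group limit the precision. No pairing of replicates is stated, and the main fit used none. Same-numbered arrays correlated at -0.20 to 0.35 in their deviations from group means, and differently numbered arrays at -0.54 to 0.52. With 3 arrays per group and very small deviations in CR, these correlations cannot decide whether the cultures were paired. Values are given, by rule, for the 5 highest and 5 lowest large-subunit and 3 highest and 3 lowest small-subunit members per comparison, members called in opposite directions, and the extremes of each other list; further members are named where a count is spelled out, and YTA12 was named after its values were seen, as the partner of AFG3. Members and lists were chosen with earlier results of these data known. Alternatives were other normalizations, variance models, filters, calls, array subsets and the authors' own p-values.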

Additional observations from a re-analysis of the deposited data

How the results depend on the processing

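None of the 995 alternative values of 50 named fold changes turned direction. Of them, 882 kept direction and call, 97 lost the call and 16 gained it. Many alternatives changed only the variance, the call or the arrays of a group not compared. Those leave the fold change as it was, so its direction could not turn there. Most named fold changes were also picked as extremes, so the lack of turns says little about the other members. A 2-fold limit brought the members called higher and lower to 4 and 4 (CR over NR), 0 and 2 (RM over NR) and 2 and 1 (CR over RM), and the authors' deposited p-values with that limit gave the same counts; fewer genes pass by construction. Fitting only the compared groups gave 0 higher in RM over NR and 19 higher in CR over RM, beside 473 and 2075 of all 5667 genes. Weights per group, chosen after seeing the data (5.34 for CR, 0.785 for RM and 0.238 for NR), gave 2 and 20, beside 556 and 2077. Weights per array did not converge and were not used. With single arrays left out, members called higher numbered 14 to 27 in CR over NR, 1 to 13 in RM over NR and 9 to 12 in CR over RM, and those called lower 10 to 13, 8 to 12 and 7 to 10. In the same fits all genes called higher numbered 1772 to 2093, 600 to 1274 and 1446 to 1950. All genes called lower numbered 1657 to 2051, 605 to 1455 and 1223 to 1826. The large minus small subunit median in CR over RM ranged from 0.00592 to 0.0706. With the replicate number as a block, RSM25 in CR over RM lost its call (adjusted p = 0.0637), members called lower there numbered 9, and no other named call changed. Quantile normalization ended the CR over RM calls of MRPL32 (-0.68, adjusted p = 0.0508), MRPL4 (0.084) and RSM25 (0.112). The cause of these losses was not tested. Leaving out the dimmest 25% of genes removed 3 members, all called lower under CR.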

Other observations

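The division of the members under CR varied with probe set signal. A probe set's signal depends on its probes and is not a transcript level, so this describes the measurements. Of all genes ordered by mean signal over the 9 arrays, the dimmest 25% held 3 members, of which 3 were lower and 0 higher under CR, beside 42.9% of all those genes lower and 21.3% higher. The next 25% held 14 members, of which 4 were lower and 0 higher, beside 33.5% lower and 32.2% higher. The next held 22 members, the most of any, of which 7 were higher and 4 lower, beside 43.7% and 27.0%. The brightest 25% held 15 members, of which 11 were higher and 0 lower, beside 44.2% of all those genes higher and 30.9% lower. Across the 54 members, which share the same 9 arrays, Spearman's rho between mean signal and the CR log2 fold change over NR was 0.67, beside 0.17 across all genes. For RM it was 0.57 beside 0.25, and for CR against RM 0.45 beside 0.06. These are across genes, which are not independent replicates, and the part of signal level in the division of the members was not tested. The mean signal includes the arrays that form each fold change. Signal and fold change are therefore coupled by construction, for members and for all genes alike.

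Gene length ran from 213 to 1887 bases over the members, with a median of 706.5. Its Spearman's rho with the log2 fold change was -0.22 for CR and 0.05 for RM, both over NR, and -0.38 for CR against RM.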
